A study of Rattus norvegicus with 22 samples.

Results

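Cells keep calcium low in the cytosol, let it in through channels, pump it out or into the sarcoplasmic reticulum, and bind it to buffer proteins. The genes described here are 7 members of that machinery: the epithelial calcium channels Trpv5 and Trpv6, the voltage-gated channel subunit Cacna1d, the plasma membrane pump Atp2b2, the pump inhibitor Pln (phospholamban), the reticulum calcium store protein Casq1 (calsequestrin 1) and the cytosolic buffer S100g (calbindin-D9k). They were chosen by symbol, and every probe set annotated with one of these symbols was kept: 12 probe sets of the 15866 tested, for 7 of 10411 measured genes. Trpv5, Trpv6 and S100g are best known from kidney, intestine, placenta and yolk sac, Atp2b2 and Cacna1d from nerve, ear and endocrine cells, Pln from heart and slow muscle, and Casq1 from fast skeletal muscle. None of these is the main cell type of liver or bone, so the first question asked of each probe set was whether it stood above the background of the arrays.

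RNA of 22 samples from pregnant Wistar rats and their offspring was hybridised to single-colour arrays, 1 array per sample. Dams received vehicle, retinoic acid (RA) at 12 mg/kg/day, or the calcium sensitiser EMD 82571 at 50 or 150 mg/kg/day (EMD50 and EMD150), a class of drug that makes muscle filaments respond more strongly to calcium; the series text also calls it MSC1096199. Dosing ran from gestational day 6 to day 11 or to day 17 by the treatment protocol, while the design text names day 17 only as its end. Day 12 gave maternal liver and the whole embryo. Day 20 gave maternal liver again, with bone and liver of the embryo. These 5 sets each held 1 control, 1 EMD50, 1 EMD150 and 1 RA array, except that both day 12 sets had a pair of RA arrays, coded RA5 and RA56. The day 20 RA arrays carry the code RA56 too, and the labels explain neither code. Whether samples share a dam or litter, and whether RNA was pooled, is not stated, so the p-values measure only the spread between these samples, which may in part be technical. Because control and each EMD 82571 dose had 1 array per set, the 5 sets served as the repeats of a treatment. For treatments, that spread is mainly how a difference varied between tissues and days, not between animals.

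Levels are log2 units throughout. The median of an array lay between 8.09 and 8.22. No detection call is used here, so background was read from 63 probe sets of 59 genes of tissues that were not sampled (olfactory, taste and vomeronasal receptors, retina, sperm, pituitary, hypothalamus, milk and enamel genes). Their 95th percentile on each array, the background limit, lay between 8.14 and 8.93, and their median between 6.55 and 7.32. Marker genes were set against the tissue labels. Hepatocyte markers had mean levels of 12.71 to 12.99 in maternal liver and 11.74 to 11.94 in embryo liver, and the 8 bone and cartilage markers had means of 12.27 to 12.48 in embryo bone against at most 8.68 elsewhere. Embryo bone also carried skeletal muscle RNA on all 4 arrays. On the EMD50 bone array the 3' probe set of GAPDH stood 2.72 above the 5' one, and at most 0.859 above it on the others.

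Most member probe sets were not above background on any array. Of the 12 probe sets, 8 exceeded the limit on no array, against 37.3% of all probe sets, and 0 exceeded it on all arrays, against 20.3% of all probe sets. Those below the limit throughout were all 3 probe sets of Cacna1d, both of Atp2b2, both of Pln and 1 of the pair for Trpv5. The other Trpv5 probe set (1398279_at) exceeded the limit on 20 arrays and Trpv6 on 16, both by a small margin. Casq1 exceeded it on 5 arrays and S100g on 2, and these were the only members with levels well over the limit, by up to 2.78 and 2.41. Of these arrays, the RA maternal liver of day 20 had Casq1 and the limit both at 8.58 after rounding.

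**Figure D1:**
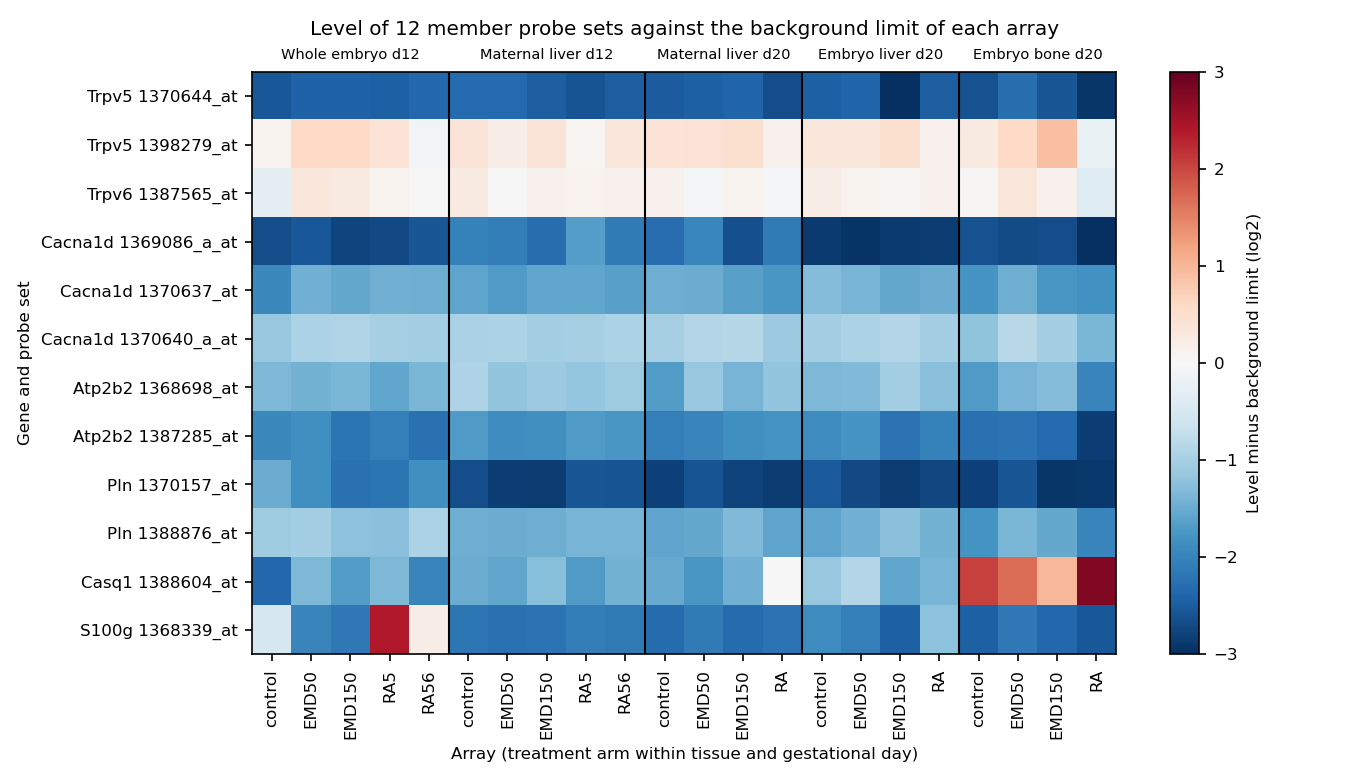
Level of each of the 12 member probe sets (rows) minus the background limit of the same array (log2, colour scale), on 22 arrays (columns) grouped by tissue and day. Red cells lie above the limit: Casq1 in embryo bone, S100g in the RA5 embryo, and faintly Trpv5 1398279_at, which exceeds the limit on 20 arrays.

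Promoter sequences were available from RefSeq (build GRCr8) for 6 of the 7 genes; S100g was not matched. The 250 bases before the start site are shown for Trpv5 and Trpv6, which are neighbours on chromosome 4 with 0 protein-coding genes between them and whose levels ran together, and for Casq1, the member with the clearest tissue pattern. The windows are chr4:71529383-71529632 (Trpv5), chr4:71489668-71489917 (Trpv6) and chr13:87212711-87212960 (Casq1), all on the minus strand and printed 5′ to 3′ in the direction of the gene. Capitals mark CAGCTG, an E-box form that myogenic factors are known to bind.

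Trpv5: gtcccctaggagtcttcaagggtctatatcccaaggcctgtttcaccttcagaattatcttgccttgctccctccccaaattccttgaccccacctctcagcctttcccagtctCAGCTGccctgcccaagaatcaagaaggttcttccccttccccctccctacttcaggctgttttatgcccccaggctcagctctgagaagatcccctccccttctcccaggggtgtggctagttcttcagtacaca

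Trpv6: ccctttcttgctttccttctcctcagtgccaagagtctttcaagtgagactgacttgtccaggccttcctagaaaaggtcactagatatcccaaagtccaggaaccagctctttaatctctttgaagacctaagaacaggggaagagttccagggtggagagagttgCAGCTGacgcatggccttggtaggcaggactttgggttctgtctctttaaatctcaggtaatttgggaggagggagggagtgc

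Casq1: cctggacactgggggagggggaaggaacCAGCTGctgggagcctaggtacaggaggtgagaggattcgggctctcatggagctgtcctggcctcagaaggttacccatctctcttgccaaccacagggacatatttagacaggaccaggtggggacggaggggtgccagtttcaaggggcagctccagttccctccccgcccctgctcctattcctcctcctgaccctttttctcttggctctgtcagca

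CAGCTG, which reads the same on both strands, was found 1 time in each of these windows, and in 0 of the windows of Cacna1d, Atp2b2 and Pln. The TATA box TATAAA and the muscle gene motifs MEF2 and CArG, searched on both strands, had 0 matches in all 6 windows, Casq1 included. They occur in 12.9%, 0.5% and 1.5% of all windows. It ends 130 bases before the start site in Trpv5, 77 in Trpv6 and 216 in Casq1. Of 33469 rat promoter windows of this length, 12.0% hold it, and 65.5% hold the wider E-box pattern CANNTG, which includes it. A match is a description of the letters and not a measured binding site.

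Trpv5 and Trpv6 form the entry gate for calcium in absorbing epithelia. Trpv5 1398279_at read 8.26 in the control whole embryo, 8.85 with EMD50, 8.99 with EMD150, 8.80 with RA5 and 8.06 with RA56. In maternal liver of day 12 it read 8.86, 8.83, 8.96, 8.49 and 8.81 in the same order, and in maternal liver of day 20 it read 9.03, 8.86, 9.19 and 8.72 for control, EMD50, EMD150 and RA. In embryo liver the values were 8.94, 8.97, 9.42 and 8.65, and in embryo bone 8.82, 8.91, 9.59 and 8.46. The EMD150 array was the highest of its tissue and day in all 5 sets, and the RA array (RA56 in whole embryo, RA5 in maternal liver of day 12) the lowest. Tissue means ran from 8.59 ± 0.41 (SD, n = 5) in whole embryo to 9.0 ± 0.32 (SD, n = 4) in embryo liver. The ranges of all neighbours in that order overlapped, and the difference over tissues was not called (limma F test, adjusted p = 0.155), although whole embryo was below embryo liver in the pairwise contrast (-0.35 ± 0.15, adjusted p = 0.037). The other Trpv5 probe set, 1370644_at, stayed between 5.62 and 6.30, with a highest value minus the limit of -2.26.

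Trpv6 1387565_at moved with it. In whole embryo it read 7.85 (control), 8.60 (EMD50), 8.66 (EMD150), 8.48 (RA5) and 8.14 (RA56). The control embryo was the lowest of all 22 arrays. In the other tissues it lay between 8.29, in the RA bone, and 8.96, in the EMD150 embryo liver, and the tissue means from 8.35 ± 0.34 (SD, n = 5) in whole embryo to 8.79 ± 0.13 (SD, n = 4) in embryo liver were not called as different (limma F test, adjusted p = 0.0574), while the contrast of those ends was (-0.42 ± 0.13, adjusted p = 0.00752). Over the 22 arrays the levels of Trpv5 1398279_at and Trpv6 correlated with r = 0.841, and with r = 0.846 after the mean of each tissue and day was subtracted.

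Both also followed the background of the arrays. The median of the 63 background probe sets correlated over the 22 arrays with Trpv5 1398279_at at r = 0.843, with Trpv6 at r = 0.887 and with Cacna1d 1370640_a_at at r = 0.934. After subtraction of tissue means these values were 0.881, 0.841 and 0.884. The same correlation was 0.161 for Casq1 and -0.318 for S100g. These are descriptions over arrays that share tissue and normalisation. The genes most like Trpv5 over the 22 arrays were Fnbp1 (r = 0.938), Ppp1r13l (0.918) and Prss22 (0.917), and after subtraction of tissue means Fnbp1 (0.961), Ube2b (0.959) and Hus1 (0.949). Those most like Trpv6 were Slc9a2 (0.934), Pth1r (0.930) and Rasgrf1 (0.930), and after subtraction Kcnh1 (0.939), Syn1 (0.938) and Gcnt3 (0.938).

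Cacna1d encodes the pore of an L-type calcium channel that opens at low voltage. Its 3 probe sets read 5.51 to 6.79 (1369086_a_at), 6.21 to 7.40 (1370637_at) and 7.03 to 8.04 (1370640_a_at), none above the limit on any array. The highest value, 8.04, came from the EMD150 embryo liver, where the limit was also the highest of all arrays. The 3 did not share a tissue order. The first was higher in maternal liver, 6.50 ± 0.18 (SD, n = 5) at day 12 and 6.33 ± 0.19 (SD, n = 4) at day 20, than in bone, embryo liver and whole embryo, where means were 5.82 or less. The other probe sets were highest in embryo liver, at 7.24 ± 0.16 and 7.70 ± 0.24 (SD, n = 4).

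Atp2b2 encodes a pump that drives calcium out across the plasma membrane. Its probe set 1368698_at ran from 6.68, in the RA bone, to 7.92, in the EMD150 embryo liver, and 1387285_at from 5.84 to 6.88, all below the limit. Both had higher means in the livers than in whole embryo and bone. For 1387285_at the ranges of the liver sets (6.44 to 6.88 together) did not overlap those of whole embryo (5.90 to 6.41) or bone (5.84 to 6.34).

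Pln encodes the small membrane protein that holds back the reticulum calcium pump until it is phosphorylated. Pln 1370157_at read 6.68 in the control whole embryo, 6.42 with EMD50, 6.15 with EMD150, 6.20 with RA5 and 6.29 with RA56. On the arrays of the other tissues it lay between 5.73 and 6.08, so the day 12 embryo did not overlap with any other tissue. Whole embryo exceeded embryo liver, the next in order, by 0.39 ± 0.080 (limma, difference ± SE, adjusted p = 0.000273). The highest value minus the limit of its array was -1.48. The 11 measured cardiac muscle markers had mean levels of 8.04 to 8.41 in whole embryo and 6.88 to 8.08 elsewhere. The second probe set, 1388876_at, ran from 6.68 to 7.68 and was highest in embryo liver, at 7.24 ± 0.29 (SD, n = 4).

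Casq1, the calcium store of fast muscle, was the member with the widest spread of tissue means among the 12 probe sets. It read 10.60 in the control bone, 9.99 with EMD50, 9.68 with EMD150 and 11.45 with RA. In embryo liver it read 7.48, 7.73, 7.38 and 7.11, and in maternal liver of day 20 it read 7.10, 6.67, 7.26 and, on the RA array, 8.58. In maternal liver of day 12 it ran from 6.75 to 7.29, and in whole embryo from 5.80, in the control, to 7.03. The 4 bone arrays stood apart from all others, at 10.43 ± 0.78 (SD, n = 4), and the 4 other tissues overlapped with their neighbours in the order. Embryo liver minus bone was -3.01 ± 0.35 (limma, adjusted p = 7.35e-07), and -3.01 ± 0.31 without the RA maternal liver of day 20.

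Skeletal muscle RNA moved with Casq1. The 15 measured markers of skeletal muscle had mean levels of 10.59, 10.27, 10.34 and 11.00 in the bones in the order control, EMD50, EMD150 and RA, with 11 markers above the limit on each. In whole embryo the means were 7.09 to 7.15 and in embryo liver 7.40 to 7.87. The RA maternal liver of day 20 had a mean of 9.20 with 9 markers above the limit, against 6.90 to 7.03 with 1 above on the other arrays of that set. There Acta1, skeletal actin, read 12.83 against 6.48 to 6.85, and Ckm, muscle creatine kinase, 11.30 against 7.23 to 7.45. Among the 4 bones, Casq1 and the marker mean were both highest with RA and next in the control, while EMD50 and EMD150 stood in opposite order. Single markers differed in this. Ckm and Myh8 were also highest with RA and next in the control, but Acta1 (14.34 to 14.53) and Myh3 (13.38 to 13.60) were not. The genes most like Casq1 over the 22 arrays were Myoz1, a protein of the muscle Z-disc (r = 0.988), Art3 (0.978) and Ryr1, the calcium release channel of skeletal muscle (0.977). After subtraction of tissue means they were Myoz1 (0.926), Ryr1 (0.897) and Synpo2 (0.896). Ryr1 is itself in the skeletal muscle marker list, so its likeness to Casq1 is not separate from that of the marker mean. Liver genes differed between the bones as well, with hepatocyte marker means of 9.14, 7.64, 7.99 and 9.04 in the same order, so that control and RA were above both doses, as for Casq1. The EMD50 bone is the array with the GAPDH 3' to 5' difference of 2.72, and the part of this in its values was not tested. Afp, a fetal liver protein, read 12.34 in the control bone and 7.58 to 7.82 in the other 3. In bulk tissue, fewer muscle cells and less RNA per muscle cell cannot be told apart, and the part of muscle or liver content in the differences between bones was not tested.

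**Figure D2:**
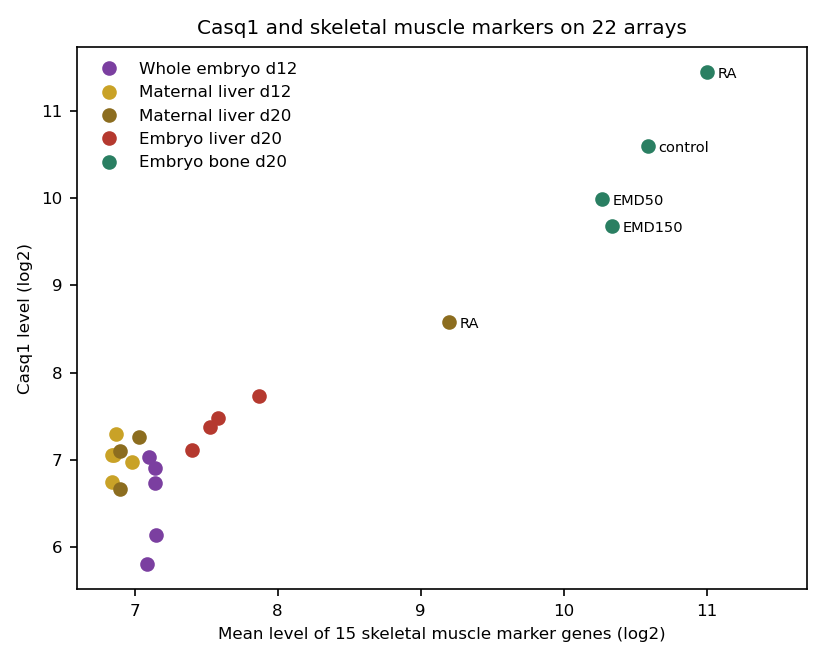
Casq1 level (vertical axis, log2) against the mean level of 15 skeletal muscle marker genes (horizontal axis, log2), 1 point per array, 22 arrays, coloured by tissue and day; labelled points are those with Casq1 above the background limit. The 4 bones and the RA maternal liver of day 20 (marker mean 9.20, Casq1 8.58 at a limit of 8.58 after rounding) lie apart from the other 17 arrays.

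S100g, a small calcium buffer under vitamin D control in the gut, was above background only in RA whole embryos. It read 7.64 in the control embryo, 6.28 with EMD50, 6.26 with EMD150, 10.79 with RA5 and 8.33 with RA56. The control, EMD50 and EMD150 embryos were below the limits of their arrays, so no fold against them is given. These are single arrays with no replicate check. Elsewhere S100g lay between 6.10 and 6.72, apart from 7.29 in the RA embryo liver. The ranges of whole embryo, at 7.86 ± 1.87 (SD, n = 5), and embryo liver overlapped, and their difference of 0.97 ± 0.51 was not called (limma, adjusted p = 0.0934). Without the RA5 embryo it was 0.37 ± 0.28 (adjusted p = 0.239).

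Markers of the visceral yolk sac, the membrane that feeds the early rat embryo, and of hepatocytes also differed between the embryos. The mean of 9 yolk sac markers was 9.88 in the control, 8.76 with EMD50, 8.48 with EMD150, 10.61 with RA5 and 9.71 with RA56, and 7, 5, 4, 7 and 7 of them were above the limit. Of these, Cubn, the uptake receptor cubilin, read 8.48, 7.32, 7.10, 9.52 and 8.55. Ttr, transthyretin, read 12.02, 10.70, 10.18, 12.82 and 11.89, and is also a liver gene, as are Rbp4, Apob, Afp and Apom of that list. The mean of 9 hepatocyte markers was 7.96 in the control, 7.78 with EMD50, 7.67 with EMD150, 8.79 with RA5 and 8.65 with RA56, with 4, 3, 2, 5 and 5 above the limit. S100g had the same order, but its EMD50 (6.28) and EMD150 (6.26) values were almost equal and below the limit. In embryo liver, hepatocyte means were 11.74 to 11.94 while S100g read 6.47 to 7.29, below the limit on all arrays. The 6 intestine, 7 kidney and 5 trophoblast markers had means between 6.56 and 7.20 on the 5 whole embryo arrays, near the background median. The genes most like S100g, chosen after its values were seen, were Cubn (r = 0.922), Amn, the partner of cubilin (0.922), and Muc13 (0.865) over 22 arrays. After subtraction of tissue means they were Maob (0.949), Cubn (0.935) and Apob (0.928). Whether embryos were dissected with or without yolk sac is not stated, and the part of yolk sac or liver cells in these values was not tested.

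**Figure D3:**
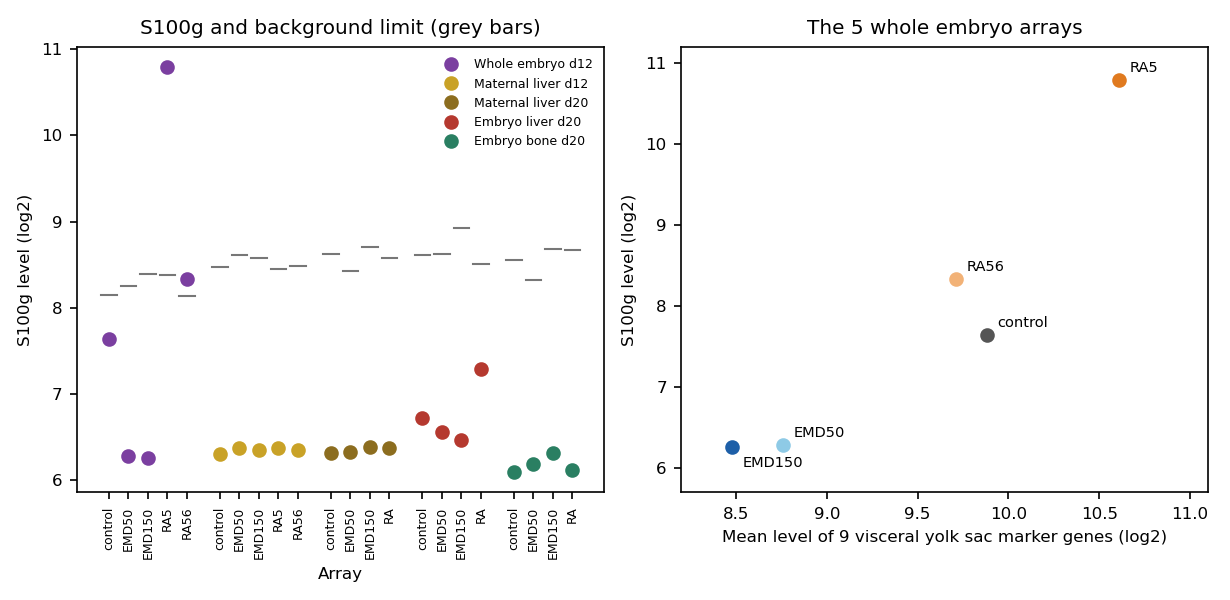
Left, S100g level (log2) on each of 22 arrays, with the background limit of each array as a grey bar; right, S100g against the mean level of 9 visceral yolk sac markers on the 5 whole embryo arrays. S100g exceeds the limit on the RA5 (10.79) and RA56 (8.33) embryos, and the EMD50 and EMD150 embryos are lowest on both axes.

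Levels differed between tissues for 10 of the 12 probe sets (limma F test, adjusted p under 0.05), a share to be read against 87.7% of all probe sets called. Between whole embryo and embryo liver 9 were called (72.9% of all), between whole embryo and maternal liver of day 20 9 (71.1%), between embryo liver and bone 6 (55.2%), and between maternal liver of day 20 and bone 4 (58.1%). The last of these were Cacna1d 1369086_a_at, both of Atp2b2 and Casq1. Whole embryo exceeded maternal liver of day 20 in S100g by 1.38 ± 0.51 (adjusted p = 0.0216), a call not made without the RA maternal liver of day 20 (1.12 ± 0.57, adjusted p = 0.0933). Without the RA5 embryo it was made at the smaller size of 0.78 ± 0.28 (adjusted p = 0.0178). Without the RA56 embryo the F test of S100g was not called either (adjusted p = 0.0623). The other order of Casq1, whole embryo below maternal liver of day 20 by an estimate of -0.94 ± 0.34 (adjusted p = 0.019), was not called without that RA liver (-0.55 ± 0.33, adjusted p = 0.155) or without the RA56 embryo (-0.78 ± 0.34, adjusted p = 0.0519).

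The response to EMD 82571 was compared over all tissues at once, with tissue and day as a block. With EMD150, 4 probe sets of 4 genes had the smallest p of the members, Trpv5 near the background limit and the other 3 below it. Trpv5 1398279_at differed from control by 0.45 ± 0.14 (difference ± SE), Atp2b2 1368698_at by 0.33 ± 0.10, Pln 1388876_at by 0.31 ± 0.087 and Cacna1d 1370640_a_at by 0.30 ± 0.082. None passed (limma, adjusted p = 0.195 for each), and 0 of the 12 members were called, beside 0% of all 15866 probe sets. At an unadjusted p under 0.05 there were 4 members and 2925 probe sets in all (18.4%). Trpv5, Pln and Cacna1d were higher than control in 5 of 5 tissues and Atp2b2 in 4 of 5. Trpv6 differed by 0.24 ± 0.12 (adjusted p = 0.287).

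The second probe sets did not repeat this. The other probe set of Trpv5 differed by 0.09 ± 0.082, that of Atp2b2 by 0.04 ± 0.10, those of Cacna1d by 0.02 ± 0.10 and 0.18 ± 0.10, and that of Pln by -0.10 ± 0.075. Casq1 differed by 0.07 ± 0.32 and S100g by -0.26 ± 0.48, means over tissues in which single arrays went opposite ways. Casq1 was lower than control in bone by a difference of -0.92 and higher in whole embryo, where it was below background, by 0.92.

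Background was higher with EMD150 as well. The median and the limit of the background probe sets were higher in the EMD150 array than in the control in 5 of 5 tissues, and 59 of the 63 background probe sets (93.7%) were higher, with a median difference of 0.16 and a range from -0.57 to 0.47. Over all probe sets 51.8% were higher, with 66.9% of those whose mean lay below the limit and 31.8% of those above it. Of the 12 members 10 were higher, with a median of 0.14. Of the 63 background probe sets, 1 differed by at least as much as Trpv5 1398279_at, 3 as Atp2b2 1368698_at, 5 as Pln 1388876_at, 6 as Cacna1d 1370640_a_at and 12 as Trpv6. Each array was also centred on the background genes, a setting chosen after seeing the data. It moved the median difference of all probe sets from 0.008 to -0.198. The difference was then 0.24 for Trpv5 (limma, adjusted p = 0.129), 0.12 for Atp2b2, 0.10 for Pln, 0.09 for Cacna1d and 0.03 for Trpv6, and 5 of the 12 members were higher.

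**Figure D4:**
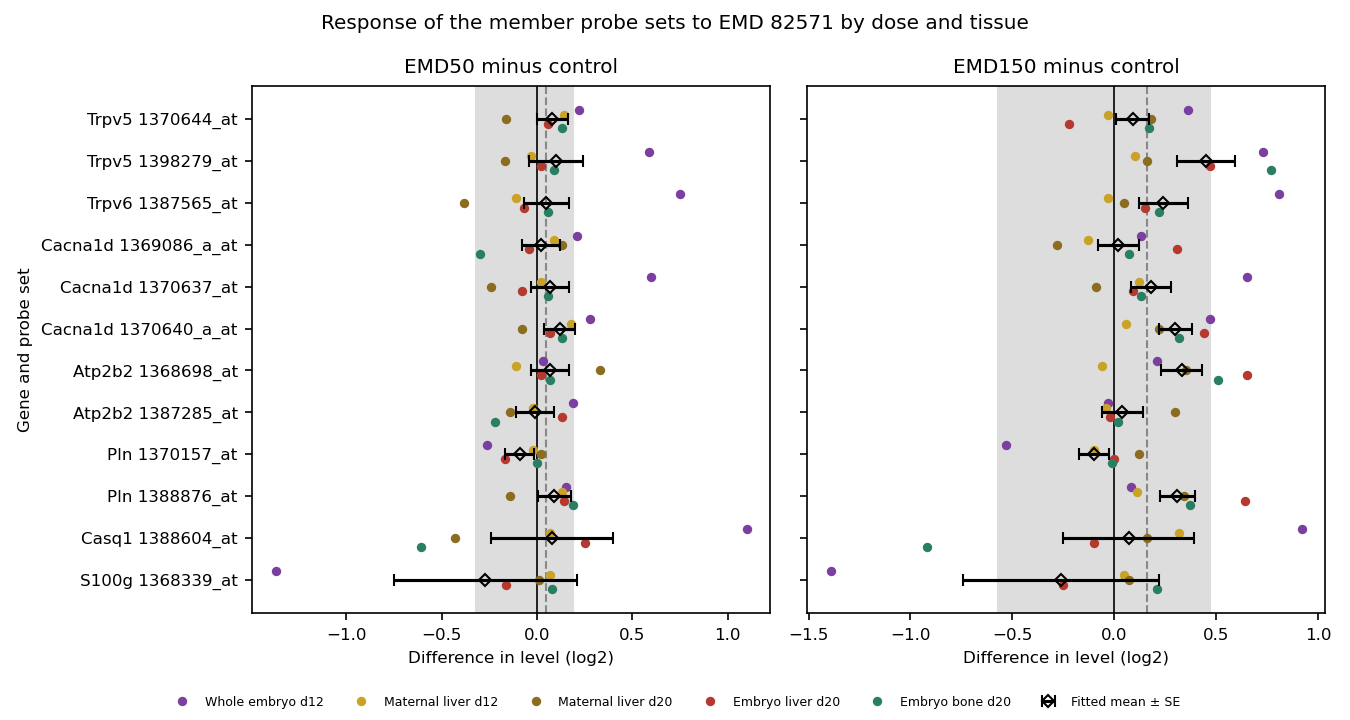
Level minus control (log2, horizontal axis) for the 12 member probe sets with EMD50 (left) and EMD150 (right). Coloured points are the 5 tissues and days, diamonds the mean fitted with limma ± SE, the grey band the range and the dashed line the median of the 63 background probe sets; with EMD150 all 12 fitted means lie inside the band, from -0.26 to 0.45.

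The low dose gave smaller differences. With EMD50, Trpv5 1398279_at differed from control by 0.10 ± 0.14, Trpv6 by 0.05 ± 0.12, Cacna1d 1370640_a_at by 0.12 ± 0.082, Pln 1388876_at by 0.09 ± 0.087 and Atp2b2 1368698_at by 0.07 ± 0.10. No member was called (limma, 0 of 12, beside 0% of all, adjusted p of 1), and 0 members and 253 probe sets had an unadjusted p under 0.05. In whole embryo alone the low dose was about as far from the control as the high dose, with Trpv6 at 8.60 and 8.66 against 7.85, a comparison of single arrays. The RA5 embryo read 8.48. That control array had the lowest background median of all arrays, 6.55. Background probe sets differed from it by a median of 0.21 with EMD50, 0.25 with EMD150 and 0.32 with RA5, and the part of this in the values was not tested. The slope per 100 mg/kg/day over both doses was 0.31 ± 0.088 for Trpv5 1398279_at, 0.23 ± 0.066 for Atp2b2 1368698_at, 0.21 ± 0.055 for Pln 1388876_at, 0.20 ± 0.052 for Cacna1d 1370640_a_at and 0.17 ± 0.077 for Trpv6. None passed (limma, adjusted p = 0.127, and 0.223 for Trpv6), so 0 of 12 were called beside 0% of all, with 5 members and 3382 probe sets at an unadjusted p under 0.05. The background probe sets had a median slope of 0.11, and 59 of 63 were above 0. Control, EMD50 and EMD150 stood in rising order in 4 of 5 tissues for Atp2b2 1368698_at and in 3 of 5 for Trpv5 1398279_at and Cacna1d 1370640_a_at.

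Mother and offspring were compared next, with the mean of both doses against control. In maternal liver Trpv5 1398279_at differed by 0.02 ± 0.18, Trpv6 by -0.12 ± 0.16 and Atp2b2 1368698_at by 0.13 ± 0.13 (limma, adjusted p = 1 for each). In the conceptus (whole embryo, embryo liver and bone) Trpv5 differed by 0.45 ± 0.15, Trpv6 by 0.32 ± 0.13, Cacna1d 1370640_a_at by 0.29 ± 0.095, Pln 1388876_at by 0.26 ± 0.10 and Atp2b2 1368698_at by 0.25 ± 0.11 (adjusted p = 0.451 for each). In both, 0 of 12 were called beside 0% of all probe sets, with 0 and 5 members, and 123 and 1733 probe sets in all, at an unadjusted p under 0.05. The background probe sets had a median difference of 0.03 in maternal liver and 0.14 in the conceptus. The difference between the sides was -0.43 ± 0.23 for Trpv5 and -0.43 ± 0.21 for Trpv6 (maternal minus conceptus, adjusted p = 0.999), again 0 of 12 beside 0% of all, so a response of the conceptus that differed from that of maternal liver was not shown.

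Retinoic acid served as the comparator teratogen. Against control it called 0 of the 12 members, beside 1.83% of all probe sets (limma), and 0 had an unadjusted p under 0.05. The largest estimates were S100g at 0.66 ± 0.45 (adjusted p = 0.628) and Casq1 at 0.43 ± 0.30 (adjusted p = 0.637). S100g was highest in the RA5 embryo, the array with the highest yolk sac marker mean of its set. Outside bone, Casq1 was above the limit only in the RA maternal liver of day 20, where level and limit were both 8.58 after rounding. That liver had the highest muscle marker mean of its set.

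EMD150 and RA differed in 4 of the 12 members, beside 14.4% of all probe sets. Trpv5 1398279_at was higher with EMD150 by 0.62 ± 0.13 (limma, adjusted p = 0.00913), Cacna1d 1370640_a_at by 0.30 ± 0.077 (0.0208), Pln 1388876_at by 0.27 ± 0.081 (0.0342) and Atp2b2 1368698_at by 0.32 ± 0.096 (0.0356). Trpv6 differed by 0.30 ± 0.11 (0.0723). The other probe sets of Trpv5 (0.17 ± 0.076, limma, adjusted p = 0.128), Atp2b2 (0.16 ± 0.095, 0.233) and Pln (0.03 ± 0.070, 0.754) were not called. Nor were the other probe sets of Cacna1d, at -0.01 ± 0.096 (0.966) and 0.15 ± 0.097 (0.285). In this comparison 59 of the 63 background probe sets were higher too, with a median of 0.20 and a range from -0.46 to 0.48. Of these 63, 0 reached the value of Trpv5, 10 that of Atp2b2 1368698_at, 11 that of Cacna1d 1370640_a_at, 11 that of Trpv6 and 13 that of Pln 1388876_at. The called probe sets of Cacna1d, Pln and Atp2b2 were below the background limit on all arrays. With arrays centred on the background genes Trpv5 was still called, at 0.40 ± 0.10 (adjusted p = 0.0118), while Cacna1d, Pln and Atp2b2 were at 0.07, 0.05 and 0.09 and were not called. In that setting S100g was called lower with EMD150, at -1.15 ± 0.42 (limma, adjusted p = 0.0477). Of the probe sets called in that setting 0.566% were higher, against 45.1% of those called in the deposited values. An earlier analysis of these data found genes of another tissue in 3 RA arrays (bone, maternal liver of day 20 and the RA56 embryo), and without them 0 members were called, with Trpv5 at 0.47 ± 0.14 (adjusted p = 0.157). None was called without embryo liver either, with Trpv5 at 0.59 ± 0.15 (adjusted p = 0.08). The count was 1 without the EMD150 bone, the EMD150 embryo liver or the RA embryo liver, and 2 without the RA bone. Both drugs were set against the same control arrays, so their separate differences from control are not independent.

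The wider calcium machinery was described with 6 lists that together name 134 genes. The arrays held 159 probe sets for 110 of these, and 120 of the probe sets had a mean below the limit. With EMD150, 120 of the 159 (75.5%) were above control, with a median of 0.092, and none was called (limma). Of all probe sets 51.8% were above control, and 66.9% of those with a mean below the limit. Voltage-gated calcium channel subunits were above control in 35 of 35 probe sets, 32 of which lay below the limit. Plasma membrane pumps and exchangers were so in 15 of 16, TRP channels in 18 of 21, epithelial calcium transport genes in 15 of 19, calcium buffers and sensors in 22 of 40 and genes of the sarcoplasmic and endoplasmic reticulum in 20 of 36. With arrays centred on the background genes these counts became 7 of 35, 3 of 16, 6 of 21, 7 of 19, 5 of 40 and 4 of 36 higher. Centring shifts every probe set of an array by the same amount, so this turn is not particular to the lists. The median difference was then -0.198 over all probe sets and -0.11 over the lists together.

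Beside the members, 13 genes of these lists were named for the smallest p in the dose trend. Of them 11 were above control with EMD150, beside 75.5% of the 159 probe sets. The dose trend uses the same arrays, so the choice in part sets the differences of these genes. Those never above the limit included Casr, the calcium-sensing receptor (EMD150 minus control 0.28 ± 0.083), Cacng2 (0.29 ± 0.10), the cold channel Trpm8 (0.33 ± 0.10), Trpc2 (0.32 ± 0.11), Slc24a1 (0.34 ± 0.12) and the kinase gene Camk2a (0.27 ± 0.083). The 2 that were above the limit on all 22 arrays lay lower with EMD150: Atp2a2, the calcium pump of the reticulum, at -0.25 ± 0.089 with levels of 10.91 to 12.12, and Atp2b1, the ubiquitous plasma membrane pump, at -0.18 ± 0.087 with levels of 9.32 to 10.56. None of the 13 was called (limma, adjusted p between 0.195 and 0.284). Between EMD150 and RA, 23 of the 159 were called higher and 7 lower, 18.9% in all, beside 14.4% of all probe sets. With arrays centred on the background genes 1 was called higher and 31 lower, 20.1% in all. In that setting 4767 of all 15866 probe sets were called, 27 of them higher.

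The same lists differed between tissues. Sln, sarcolipin, and Atp2a1, the calcium pump of fast muscle, had means of 11.63 ± 0.81 and 11.31 ± 0.63 (SD, n = 4) in bone against 7.70 ± 0.13 and 7.77 ± 0.26 (SD, n = 5) in whole embryo, where they were lowest. Pth1r, the parathyroid hormone receptor, was highest through a probe set other than the one listed beside Trpv6, in bone at 10.09 ± 0.69 (SD, n = 4). The neutrophil proteins S100a9 and S100a8, relatives of S100g, were highest in embryo liver, a blood-forming organ before birth, at 10.85 ± 0.76 and 8.79 ± 0.99 (SD, n = 4), against 5.60 and 5.33 in whole embryo. These genes were named for their wide range of tissue means, so no test is given.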

How the data were processed

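Each of 22 rat samples was measured on 1 array. The authors deposited log2 values per probe set, made with RMA per the submitters' processing notes. Its version, and whether all arrays were run through it together, is not stated in what was used here. Of 15923 rows, 57 array controls were left out. Symbols came from the probe table: 12783 probe sets had 1 symbol, 312 several and 2771 none. Limma 3.58.1 in R 4.3.3 (eBayes with trend, two-sided, Benjamini-Hochberg over all probe sets, call at 0.05) used tissue and day as a block and treatment as a factor (14 residual degrees of freedom), dose as a number (15), or treatment effects by side (11). Scripts were tested on simulated data. The number of arrays limits the precision. The members and lists were chosen with earlier results of these data known. Named were all member probe sets, the 3 genes per list with the smallest p in the dose trend, up to 2 per list with the largest tissue range, and the 3 most like a member. Alternatives were other scalings, array weights, no trend, a filter on low values, other background limits and leaving out arrays or tissues.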

Additional observations from a re-analysis of the deposited data

Results flagged for a closer look

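Within each tissue and day, the highest or lowest array of each member probe set was compared with its nearest neighbour by Dixon's criterion, in 60 groups of 4 or 5 arrays. Atp2b2 1368698_at met it 2 times, each time through the EMD150 array. In whole embryo that array read 7.01, against 6.84 for the next and 6.77 at the other end. In embryo liver it read 7.92, against 7.29 for the next and 7.25 at the other end. Chance flags about 1 in 20 groups, both values lie below the background limit of their arrays, and the second probe set of the gene read 6.19 and 6.71 on them, inside its own range. The EMD150 embryo liver had the highest background limit of all arrays, 8.93, and its part in the value was not tested.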

How the results depend on the processing

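The count of 0 called members held for EMD150, EMD50, RA, the dose trend and both sides against control in every alternative run. Of 12 members, 4 were called between EMD150 and RA. That count was 2 with median and SD scaling, 2 with arrays centred on background genes (chosen after seeing the data), 1 with the filter on low values, which kept 3 member probe sets, 2 without maternal liver of day 20, 0 without embryo liver, 1 without bone, 0 without the 3 RA arrays, and 1 to 5 when 1 array was left out. Without both RA5 arrays, chosen after seeing the data, it was 5, with Trpv6 added (0.35, limma, adjusted p = 0.0447). Over all 15866 probe sets, 2282 were called with the deposited values, 1855 with median and SD scaling and 4767 with centred arrays. Trpv5 1398279_at was called in 35 of 37 settings, Cacna1d 1370640_a_at in 28 of 36, Pln 1388876_at in 22 of 36 and Atp2b2 1368698_at in 21 of 36. In these totals, leaving out the EMD50 bone array and leaving out the control bone array are each counted again as a separate setting. The 10 members that differed between tissues became 1 under the filter and 8 to 12 when 1 array was left out. The number of members above background stayed at 4 under each limit tried.

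Signs turned only for differences that were not called. For EMD150 minus control these were Cacna1d 1369086_a_at (-0.04 with quantile normalization, -0.09 with SD scaling, -0.09 with array weights, -0.19 centred, -0.01 without whole embryo, -0.05 without embryo liver), Atp2b2 1387285_at (-0.02, -0.04 and -0.16 with quantile, SD and centred values, -0.02 without maternal liver of day 20), Trpv5 1370644_at (-0.02 with SD scaling, -0.12 centred), Cacna1d 1370637_at (-0.03 centred) and Casq1 (-0.13 centred). Without whole embryo Casq1 was at -0.14, S100g at 0.02 and Pln 1370157_at at 0. In maternal liver, Trpv5 1398279_at was at -0.03 centred and 0 without day 12, and Atp2b2 1368698_at at -0.09 without day 20. For EMD150 minus RA, Pln 1370157_at was at -0.04, -0.09, -0.05 and -0.19 with quantile, SD, weighted and centred values, 0 without maternal liver of day 20 and -0.02 without embryo liver. Centred values were -0.06 for Trpv5 1370644_at, -0.08 for Cacna1d 1370637_at and -0.06 for Atp2b2 1387285_at. Cacna1d 1369086_a_at was at 0.07 and 0.08 without maternal liver of day 12 and day 20 and at 0.06 without both RA5 arrays, and Casq1 at 0.08 without the 3 RA arrays. The cause was not tested.

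Leaving out 1 array gave -0.06 to 0.11 for Cacna1d 1369086_a_at, 0 to 0.09 for Atp2b2 1387285_at, -0.09 to 0.3 for Casq1 and -0.4 to 0.12 for S100g (EMD150 minus control), -0.02 to 0.05 for Trpv5 1398279_at and -0.13 to 0.38 for Atp2b2 1368698_at (maternal liver), and -0.01 to 0.1 for Pln 1370157_at and -0.09 to 0.08 for Cacna1d 1369086_a_at (EMD150 minus RA). With 1 array per treatment in most tissues, the lone array is assumed to vary like the others. No paired analysis was possible because the titles give no replicate numbers to the control and EMD 82571 arrays, and the codes RA5 and RA56 mark RA arrays only.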
